A study of Homo sapiens with 6 samples.

Results

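Transcript levels of 10 genes of extracellular matrix turnover were examined in HK-2 cells, a human cell line from the proximal tubule of the kidney that was transformed with human papillomavirus 16. The genes were taken by symbol and comprised 6 matrix metalloproteinases (MMP1, MMP2, MMP3, MMP7, MMP9 and MMP14), 3 tissue inhibitors of metalloproteinases (TIMP1, TIMP2 and TIMP3) and the related secreted proteinase ADAMTS1. All 10 were among the 26899 genes with a read count, and 7 of them passed the filter on low counts, which left 15299 genes to be tested. Polyadenylated RNA was sequenced in 6 libraries. Per the titles, 3 were wild type cells and 3 were ANXA2 knockdown cells, while the sample descriptions abbreviate the groups as shCtrl and shANXA2, so the labels do not settle whether the control cells carried a hairpin. Cells were transfected with plasmid by lipofection, and neither the time after transfection nor whether replicates were separate cultures is given in the labels, so p-values measure the spread between these libraries only.

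Matrix metalloproteinases are zinc endopeptidases that cleave collagens, laminins, fibronectin and other matrix or surface proteins. Most are secreted as inactive proenzymes and are switched on by removal of a propeptide, for which plasmin and other proteinases are known activators. The TIMPs bind the active site and block it, so the balance of proteinase and inhibitor is the usual way to describe this system. Annexin A2, the protein targeted in the study, forms a cell surface complex with S100A10 that binds plasminogen. In injured kidney tubules MMP7 and TIMP1 are known as induced genes.

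The depth of the libraries ranged from 24231267 to 34561675 counted reads, with control replicate 1 (24231267) and knockdown replicate 3 (28866835) as the shallowest. The same 2 libraries had the fewest genes with a read, 18861 and 19569, against 20764 to 21819 in the others. They were also the only ones below 0 on the first principal component of log2 CPM, which carried 38.5% of the variance and on which control replicate 1 stood farthest out. The second component (25.9%) separated the labels, with controls at -21.26, -36.97 and -2.249 and knockdowns at 13.02, 6.154 and 41.31. Mitochondrial reads made up 6.5%, 6.01% and 6.17% in the libraries labelled control and 5.58%, 5.6% and 5.26% in those labelled knockdown. The cause of these label-wide differences was not tested. The targeted gene did not bear out the labels, since ANXA2 reached 1658, 1461 and 1675 CPM (reads scaled to a common library size) in the libraries labelled control and 1538, 1561 and 1519 CPM in those labelled knockdown. Its log2 fold change was -0.05 with an edgeR adjusted p of 0.848. Every difference below is therefore one between labels. Of the marker lists, the keratins KRT8 and KRT18 and the tubule genes PAX8 and GGT1 were abundant, whereas LRP2, CUBN, AQP1 and ANPEP had at most 12 reads in a library and the epithelial cadherin CDH1 at most 16. Endothelial markers summed to at most 0.07 FPKM, and leukocyte markers, with no row for PTPRC or CD3E, to 0.71 to 1.19 FPKM in the libraries labelled control and 0.89 to 1.59 FPKM in those labelled knockdown. Fibroblast markers summed to 8.42 to 10.03 FPKM and 7.87 to 8.79 FPKM, most of it from LUM, and their part in the results below was not tested.

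The order of transcript levels was compared first, using the deposited FPKM values, which are scaled for transcript length and library depth and so allow genes to be set side by side. The inhibitors were the most abundant members. TIMP1, a soluble inhibitor of most secreted MMPs, averaged 158 FPKM over the 6 libraries, and TIMP2, which inhibits MMP14 and also takes part in the activation of proMMP2, averaged 54.6 FPKM. MMP14, a membrane-anchored collagenase and activator of proMMP2, was the most abundant proteinase of the set at 34.6 FPKM. ADAMTS1, which cleaves the proteoglycan versican, followed at 22.3 FPKM, and MMP7, the small proteinase matrilysin, at 19.3 FPKM. MMP1, the interstitial collagenase, averaged 6.36 FPKM and the gelatinase MMP9 0.867 FPKM. MMP3, TIMP3 and MMP2 averaged 0.0533, 0.015 and 0.00167 FPKM. Between neighbours in this order, the ranges over the 6 libraries overlapped for ADAMTS1 and MMP7, for MMP7 and MMP1, for MMP3 and TIMP3, and for TIMP3 and MMP2. The wide range of MMP7 also reached that of MMP14, with a highest value of 30.85 FPKM against a lowest of 30.19 FPKM. No overlap was seen between neighbours from TIMP1 through TIMP2 and MMP14 to ADAMTS1, nor between MMP9 and either MMP1 or MMP3.

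**Figure D1:**
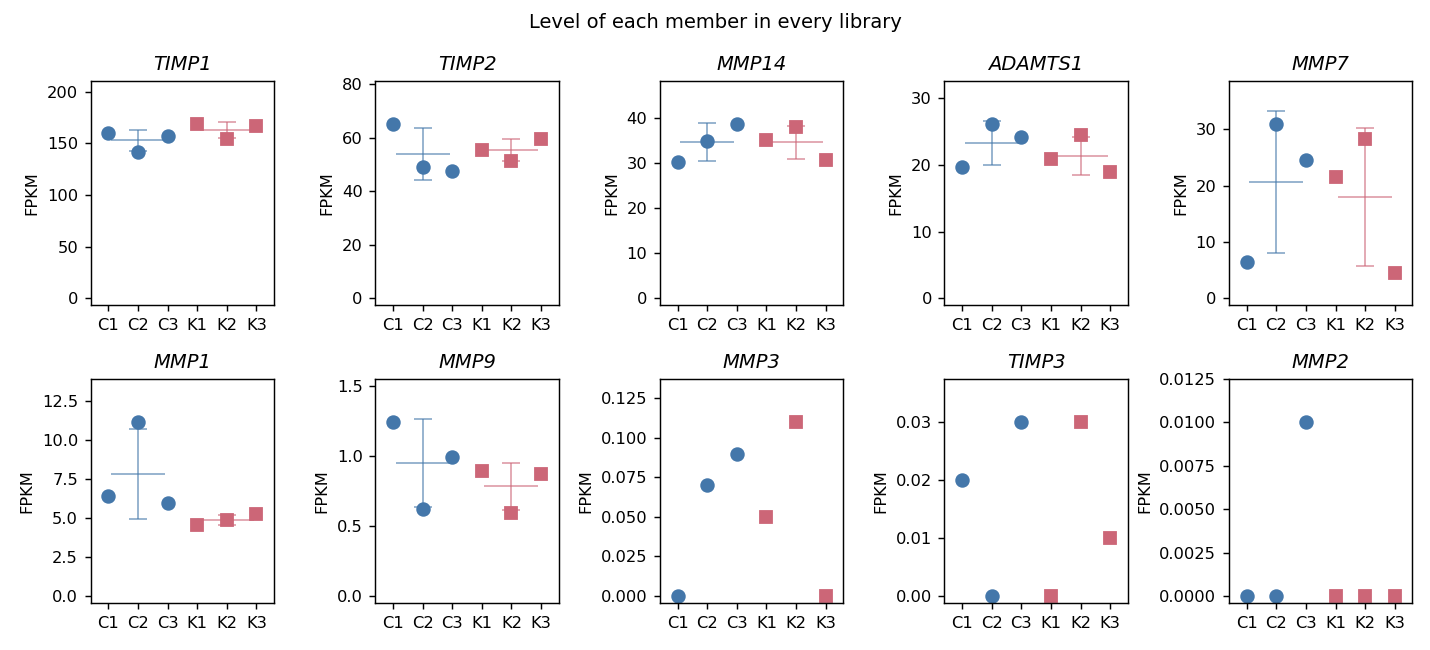
Deposited FPKM of the 10 genes in every library (C, labelled control, circles; K, labelled knockdown, squares), each panel with its own linear axis; for the 7 tested genes the wide tick and error bar give the group mean and SD of 3 libraries. TIMP1 sits between 141.54 and 168.26 FPKM in all libraries, whereas MMP7 is at 6.51 FPKM in C1 and 4.43 FPKM in K3 and between 21.5 and 30.85 FPKM in the other libraries.

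To ask which of these genes differed between the labels, all 15299 tested genes were fitted together with the edgeR quasi-likelihood test. None of the 7 tested members had a Benjamini-Hochberg adjusted p under 0.05. The background was 0 of 15299 genes (0%) at that threshold by edgeR, with 1251 genes at an unadjusted p under 0.05 and 32 genes past the threshold by DESeq2, none of them a member. The count of 1251 moved to 505 without knockdown replicate 1, and to 1947 and 739 when control replicate 1 or 2, respectively, was omitted. At an unadjusted p under 0.05 there was 1 member, MMP1, which was lower, where 4.32% of all tested genes were lower and 3.86% higher. Of the 7 estimates 3 were above 0 and 4 below, with a median log2 fold change of -0.11 against -0.0065 over all tested genes. With 3 against 3 libraries the exact two-sided permutation test cannot give a p below 0.1.

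MMP1 (ENSG00000196611.4, GRCh38 chromosome 11, bases 102789401 to 102798160, minus strand) was the member with the largest estimated difference. Its reads numbered 326, 748 and 387 in control replicates 1, 2 and 3, and 328, 338 and 314 in knockdown replicates 1, 2 and 3. After scaling these were 13.36, 22.88 and 12.42 CPM against 9.612, 10.24 and 10.88 CPM. The groups did not overlap, all 3 libraries labelled knockdown lying below all 3 labelled control, and control replicate 2 stood well above the rest. Of the 7 tested members MMP1 alone was separated in this way, 1 of 7 where 7.7% of all tested genes were so separated, and 0 members were separated upwards. It had a log2 fold change of -0.67 (standard error 0.233, 95% interval from -1.19 to -0.14), an unadjusted p of 0.0183 and an edgeR adjusted p of 0.599. The exact permutation p was 0.1, the smallest possible. Leaving out control replicate 2 brought the estimate to -0.33 (edgeR unadjusted p 0.0591). Leaving out knockdown replicate 1 also took the unadjusted p past 0.05 (0.0584 by edgeR), at an estimate of -0.62. Under each alternative run the estimate stayed below 0. The pseudogene WTAPP1 runs across MMP1 on the other strand and shares 8.14% of its exonic bases, but held 3 reads over the 6 libraries.

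**Figure D2:**
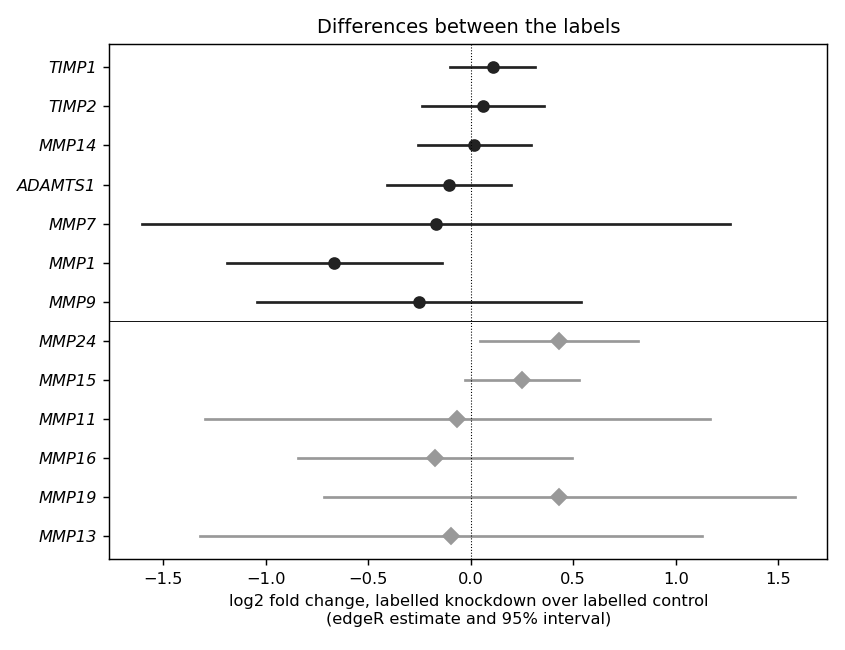
Estimated log2 fold change of the 7 tested members (black circles) and of the 6 other tested MMP genes (grey diamonds), libraries labelled knockdown over those labelled control, with 95% intervals from edgeR. The interval of MMP1 runs from -1.19 to -0.14 and that of MMP7 from -1.60 to 1.26; neither gene passed the adjusted threshold.

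MMP7 (ENSG00000137673.8, chromosome 11 from 102520508 to 102530750, minus strand) varied most among the members, and it did so across the labels. Its reads were 190, 1183 and 908 in control replicates 1, 2 and 3 and 883, 1120 and 152 in knockdown replicates 1, 2 and 3. In FPKM these were 6.51, 30.85 and 24.53 against 21.5, 28.21 and 4.43. Control replicate 1 and knockdown replicate 3 were low and the other 4 libraries high, so that each group held 1 low and 2 high libraries and the highest value was 6.96 times the lowest. The SD of log2 CPM within groups was 1.33 for MMP7 against a median of 0.224 over all tested genes, which placed it at the 98.5th percentile. Accordingly the log2 fold change of -0.17 carried a standard error of 0.636 and a 95% interval from -1.60 to 1.26 (edgeR adjusted p 0.951, exact permutation p 0.7), an interval that takes in a 2-fold difference in either direction. Without those 2 libraries MMP7 was estimated at -0.13 (standard error 0.167, edgeR adjusted p 0.745). This setting was chosen after the data were seen and removes the 2 lowest MMP7 values. The smaller standard error therefore follows from the choice and is no evidence on the labels. The 2 libraries left out are the 2 shallowest and the 2 below 0 on the first principal component. The part of depth or of that component in the MMP7 values was not tested. In bulk RNA fewer cells with MMP7 and less MMP7 per cell cannot be told apart.

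Other members differed in those 2 libraries as well. MMP14 (ENSG00000157227.12, chromosome 14 from 22836560 to 22849041, plus strand) measured 30.19, 35.03 and 38.59 FPKM in the libraries labelled control and 35.16, 38 and 30.79 FPKM in those labelled knockdown, its lowest 2 values being again control replicate 1 and knockdown replicate 3. ADAMTS1 (ENSG00000154734.14, chromosome 21 from 26835755 to 26845409, minus strand) had 19.63, 26.04 and 24.11 FPKM against 20.82, 24.43 and 18.86 FPKM, with the same 2 libraries lowest. The steps were small beside that of MMP7, the highest value being 1.28 times the lowest for MMP14 and 1.38 times for ADAMTS1. TIMP2 (ENSG00000035862.12, chromosome 17 from 78852977 to 78925387, minus strand) went the other way, with 64.87, 48.87 and 47.45 FPKM against 55.47, 51.4 and 59.55 FPKM and its 2 highest values in those libraries. Over the 6 libraries, which share their depth and library effects, Pearson's r of log2 CPM with MMP7 was 0.916 for ADAMTS1, 0.88 for MMP14 and -0.83 for TIMP2. MMP1 showed little of it (r = 0.238 with MMP7). These correlations describe 6 libraries and were not tested.

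**Figure D3:**
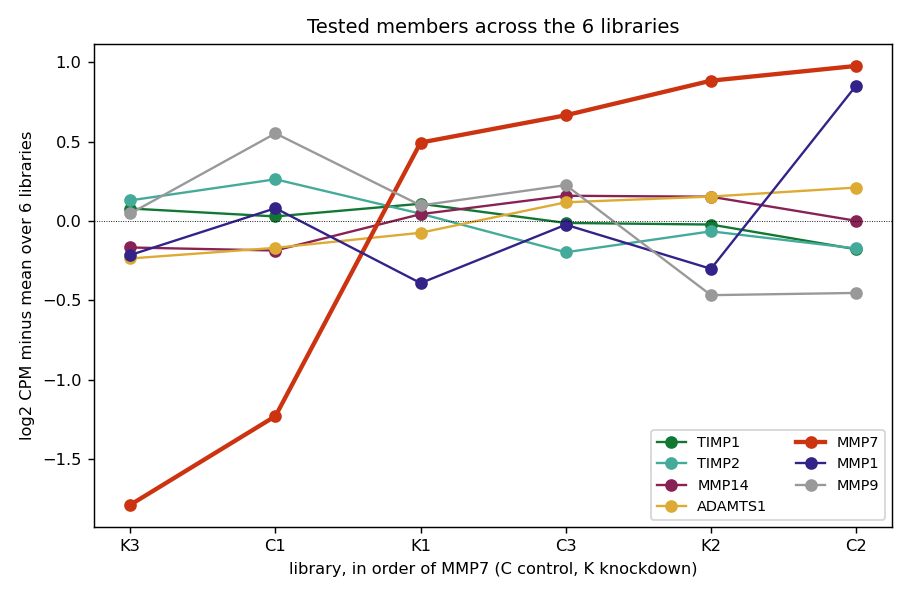
Level of the 7 tested members in each library as log2 CPM minus the mean over the 6 libraries, with libraries ordered by MMP7 (C, labelled control; K, labelled knockdown). MMP7 is low in K3 and C1, where ADAMTS1 and MMP14 are also at their lowest and TIMP2 at its highest, while MMP1 is high in C2.

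Between the labels, MMP14 had a log2 fold change of 0.02 with a 95% interval from -0.26 to 0.29, ADAMTS1 one of -0.11 with an interval from -0.41 to 0.20, and TIMP2 one of 0.06 with an interval from -0.24 to 0.36. The edgeR adjusted p-values were 0.976, 0.836 and 0.911. None of these 3 genes differed beyond the spread between replicates, and changes up to the bounds of these intervals remain possible. CEP295NL lies within TIMP2 on the same strand and shares 3.61% of its exonic bases, with 79 reads in all against 43048 for TIMP2. The antisense RNA ENSG00000267601 shares 5.91% of the exonic bases of TIMP2, with 55 reads in all.

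TIMP1 (ENSG00000102265.11, X chromosome from 47582408 to 47586789, plus strand, within the gene SYN1 on the other strand without shared exons) was the steadiest member. It had 160.21, 141.54 and 156.8 FPKM in the libraries labelled control and 168.26, 153.9 and 167.05 FPKM in those labelled knockdown. The groups overlapped, and control replicate 2, the library with the highest MMP1, had the lowest TIMP1. The SD of log2 CPM within groups was 0.0913, at the 10.6th percentile of all tested genes. Its log2 fold change of 0.11 had a standard error of 0.092 and a 95% interval from -0.10 to 0.31 (edgeR adjusted p 0.744, exact permutation p 0.3). Over the 6 libraries r between MMP1 and TIMP1 was -0.883, a value that leans on this extreme library and was not tested.

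The promoters of MMP7 and TIMP1, the tested members with the widest and the narrowest spread between libraries, are shown so that the letters before the start of each gene can be compared. RefSeq promoters were found for 4 of the 10 members (MMP7, MMP14, TIMP1 and TIMP3), and each stretch ends just before the outermost annotated start of its gene. The MMP7 stretch lies at chr11:102530751-102530997 on the minus strand of GRCh38.p14, with an AP-1 motif and a TATA box in capitals. The TIMP1 stretch lies at chrX:47582186-47582407 on the plus strand, with both GC boxes, read on the opposite strand, in capitals.
MMP7: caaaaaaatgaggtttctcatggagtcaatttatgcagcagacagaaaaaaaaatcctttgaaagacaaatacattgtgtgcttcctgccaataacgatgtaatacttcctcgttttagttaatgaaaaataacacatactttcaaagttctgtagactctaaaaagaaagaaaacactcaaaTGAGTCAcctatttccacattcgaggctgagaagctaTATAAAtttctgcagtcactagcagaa
TIMP1: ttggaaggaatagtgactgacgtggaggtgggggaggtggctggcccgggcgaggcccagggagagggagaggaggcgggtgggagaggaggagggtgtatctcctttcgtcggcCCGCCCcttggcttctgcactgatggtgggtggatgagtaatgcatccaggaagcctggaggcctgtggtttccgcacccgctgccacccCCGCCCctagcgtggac
The letters searched on both strands were TGANTCA for AP-1 (the binding letters of FOS and JUN proteins), TATAAA for the TATA box and GGGCGG for the GC box, and none of the 3 overlaps another here. In MMP7 the AP-1 letters begin 67 bases before the RefSeq start and the TATA letters 30 bases before it. Of all 35116 RefSeq promoters, 6.6% hold the AP-1 letters in the 250 bases before the start, 10.7% the TATA letters and 42.6% the GC box. The MMP7 stretch was 33.6% G and C with 3 CpG pairs, and the TIMP1 stretch 65.8% with 11 CpG pairs. In the stretches searched, MMP14 held 1 GC box and TIMP3 5, and neither held the AP-1 or TATA letters. These stretches were 247 bases for MMP7, 222 for TIMP1, 225 for MMP14 and 250 for TIMP3. The 25 bases of MMP14 and 28 of TIMP1 nearest the RefSeq start were left out, so letters there were not searched. The shares of all promoters use the full 250 bases. A match describes the letters only, and no binding was measured.

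MMP9 (ENSG00000100985.7, chromosome 20 from 46008908 to 46016561, plus strand) was lowly expressed, with 75, 49 and 76 reads in the libraries labelled control and 76, 49 and 62 in those labelled knockdown. In FPKM these were 1.24, 0.62 and 0.99 against 0.89, 0.59 and 0.87, so the groups overlapped, with replicate 2 lowest in each. The log2 fold change of MMP9 was -0.25 (standard error 0.35, edgeR adjusted p 0.847), and omitting control replicate 1 or 2 moved it to -0.01 or -0.49. The antisense RNA SLC12A5-AS1 shares 18.41% of the exonic bases of MMP9 and held 114 reads against 387. The library kit keeps the strand, but whether counting used it is not stated, so part of either count may belong to the other.

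The remaining members were at the limit of detection. MMP3, the stromelysin that can activate proMMP1 and proMMP9 (ENSG00000149968.11, chromosome 11 from 102835801 to 102843609), had 0, 5 and 6 reads in control replicates 1, 2 and 3 and 4, 8 and 0 reads in knockdown replicates 1, 2 and 3. The 2 libraries without a read were control replicate 1 and knockdown replicate 3, where MMP7 was low, and a count of 0 there allows up to 3 reads, or 0.124 and 0.104 CPM. TIMP3, an inhibitor that binds to the matrix and also acts on ADAM proteinases (ENSG00000100234.11, chromosome 22 from 32801705 to 32863041, inside SYN3 without shared exons), had 2, 0 and 5 reads against 0, 5 and 2. MMP2, the gelatinase activated through MMP14 and TIMP2 (ENSG00000087245.12, chromosome 16 from 55389700 to 55506691), had 2 reads in control replicate 3 and 0 in each of the other libraries. The depth-corrected ratio of knockdown to control reads was 0.986 for MMP3, with an exact 95% counting interval from 0.398 to 2.47, and 0.903 for TIMP3, from 0.27 to 3.02. For MMP2 the interval reached up to 4.81. Intervals and limits of this kind cover counting error only, and differences within them were not detectable at this depth. MMP14 and TIMP2, the partners of proMMP2 activation, were thus abundant in libraries with almost no MMP2 transcript.

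MMP1, MMP3 and MMP7 belong to a cluster of 9 MMP genes that spans 435.2 kilobases of chromosome 11, all on the minus strand in the annotation. In chromosomal order these are MMP7, MMP20, MMP27, MMP8, MMP10, MMP1, MMP3, MMP12 and MMP13, and 6 of the 9 had a row in the count table used here. MMP7 held 4436 reads over the 6 libraries and MMP1 held 2441, while MMP13, at the far end, held 142, MMP3 23, MMP10 15 and MMP12 2. The 2 well-expressed genes are separated by 4 others, of which MMP10 alone was listed. MMP10 had 0, 9 and 3 reads in the libraries labelled control and 3, 0 and 0 in those labelled knockdown. MMP13 had 33, 17 and 19 reads against 31, 15 and 27, and its FPKM was highest in control replicate 1 (0.45) and knockdown replicate 3 (0.31), the libraries with low MMP7, although knockdown replicate 1 was close behind (0.3). MMP7, MMP1 and MMP13 thus each had another order of libraries.

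**Figure D4:**
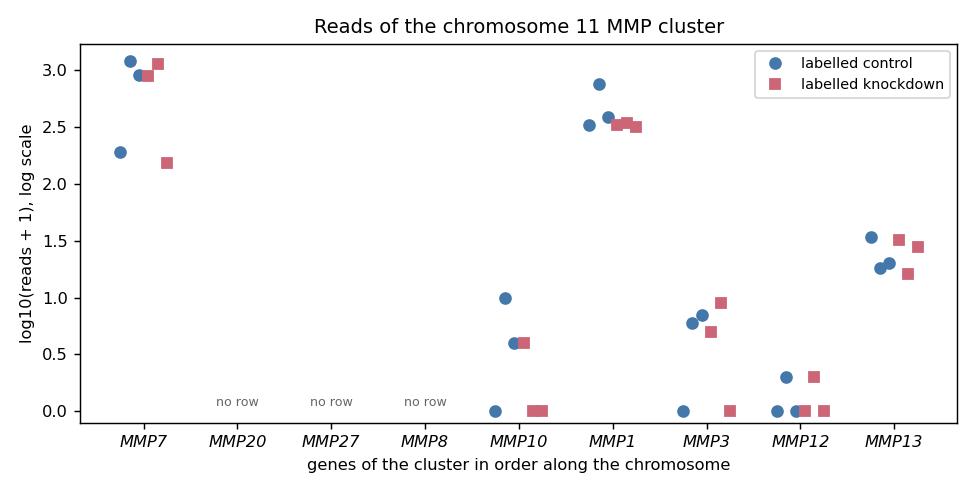
Reads per library, as log10 of reads plus 1, for the 9 MMP genes of the chromosome 11 cluster in chromosomal order. MMP7 and MMP1 stand above the rest, MMP7 splits into 4 higher and 2 lower libraries, and 3 genes had no row.

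The balance of proteinase and inhibitor transcripts was described as ratios of FPKM within a library, without a test. The ratio of MMP1 to TIMP1 was 0.0398, 0.0787 and 0.0381 in control replicates 1, 2 and 3 and 0.0271, 0.0316 and 0.0313 in knockdown replicates 1, 2 and 3. The 3 libraries labelled knockdown were below the 3 labelled control, as they were for MMP1 alone. The ratio of MMP9 to TIMP1 was 0.00774, 0.00438 and 0.00631 against 0.00529, 0.00383 and 0.00521, with overlap, and it was highest in control replicate 1 and lowest in knockdown replicate 2. For MMP14 to TIMP2 the ratio was 0.465, 0.717 and 0.813 against 0.634, 0.739 and 0.517, and the groups overlapped. The sum of the 6 MMPs over the sum of the 3 TIMPs was 0.197, 0.408 and 0.344 against 0.278, 0.35 and 0.182. Its mean was 0.316 ± 0.108 in the libraries labelled control and 0.27 ± 0.0839 in those labelled knockdown (SD, n = 3). The lowest 2 ratios came from knockdown replicate 3 and control replicate 1, so the spread within either label exceeded the difference between them. In these libraries MMP7 made up 10.7% and 14.7% of the summed MMP FPKM, against 34.6% to 39.7% elsewhere, and MMP14 made up 74.5% and 68.1%.

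**Figure D5:**
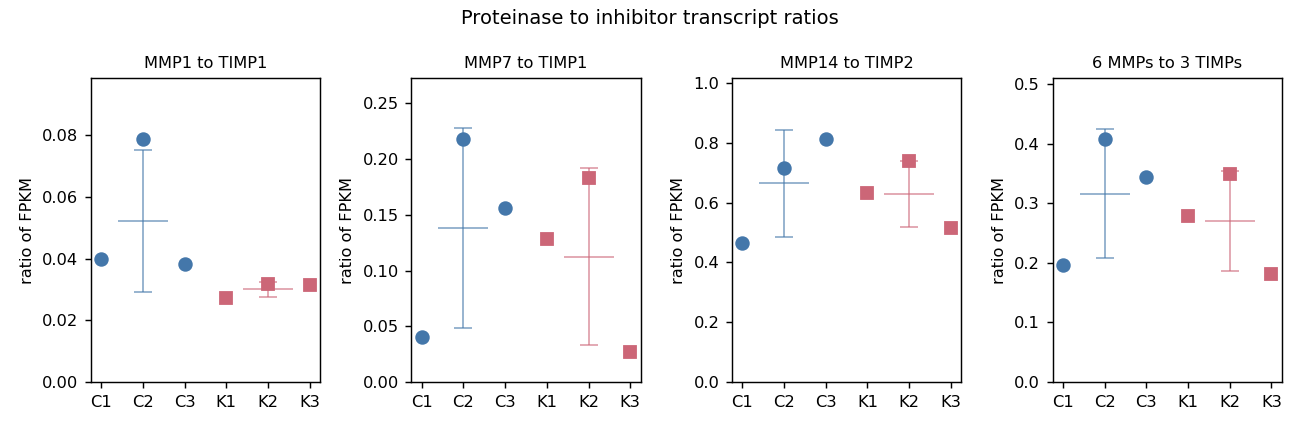
Ratios of FPKM of proteinase to inhibitor transcripts in each library (C, labelled control, circles; K, labelled knockdown, squares), with the group mean and SD of 3 libraries. For MMP1 to TIMP1 the K libraries lie between 0.0271 and 0.0316 and the C libraries at 0.0381 and above, while in the other 3 panels C1 and K3 are lowest.

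The genes whose pattern was most like that of MMP7 or TIMP1 over the 6 libraries were then listed by Pearson's r of log2 CPM among tested genes of at least 1 CPM. For MMP7 these were PNPT1 (r = 0.998), DSE (r = 0.998) and ABCA12 (r = 0.997). ABCA12 had 2.38 CPM in control replicate 1 and 1.63 CPM in knockdown replicate 3, against 12.2 to 23.5 CPM elsewhere. DSE had 27.6 and 24.5 CPM in those libraries and 49 to 54.1 CPM in the others, whereas PNPT1 ranged only from 43.1 to 55.4 CPM, with the same 2 libraries lowest. For TIMP1 they were NLE1 (r = 0.996), FAM193B (r = 0.993) and PACS2 (r = 0.993). With 6 points and candidates drawn from 15299 tested genes, values of this size describe a ranking only.

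Further genes of the pathway were taken from lists of other proteinases, inhibitors, activators, partners, substrates and transcription factors, and 0 of them passed the edgeR adjusted threshold. Of 17 other MMP genes 13 had a row and 6 were tested, with 3 estimates above 0 and 3 below. The most abundant were the membrane-type enzymes MMP24 and MMP15. MMP24 had 22.62, 14.46 and 15.78 FPKM in the libraries labelled control and 22.48, 21.58 and 26.58 FPKM in those labelled knockdown, with a log2 fold change of 0.43, an unadjusted p of 0.0323 and an edgeR adjusted p of 0.605. Its groups overlapped through control replicate 1. MMP24OS on the other strand shares 18.42% of the exonic bases of MMP24, and its 1608 reads over the 6 libraries may be mixed with those of MMP24. MMP15 had 13.06, 17.52 and 14.08 FPKM against 18.24, 18.03 and 16.25 FPKM (log2 fold change 0.25, edgeR adjusted p 0.62).

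Among other inhibitors only RECK, a membrane-anchored inhibitor of several MMPs, was listed and tested, with a log2 fold change of -0.11. Of 18 other ADAMTS genes 10 were tested, with 5 estimates in each direction, and of 9 ADAM sheddases, which release surface proteins, 7 were tested, with 3 above 0 and 4 below. ADAMTS9 and ADAMTS12 led the former by CPM and ADAM15 and ADAM10 the latter. ADAM10 was lower at an unadjusted p of 0.0241 (edgeR adjusted p 0.605), with 4.26, 6.81 and 4.21 FPKM against 3.71, 3.27 and 3.83 FPKM, without overlap, and as for MMP1 its highest value was in control replicate 2. ADAM9 and ADAMTS17, named after their values were seen, were separated upwards, as 1 of 7 tested ADAM and 1 of 10 tested ADAMTS genes. Over all tested genes 7.94% were separated upwards and 7.7% downwards. The edgeR adjusted p-values of ADAM9 and ADAMTS17 were 0.615 and 0.816. ADAMTS17 was lowly expressed, with 10, 14 and 14 reads in the libraries labelled control and 18, 21 and 16 in those labelled knockdown. Of 8 activators of proenzymes 5 were tested. PLAU, the urokinase that generates plasmin, had 189.99, 263 and 365.85 FPKM against 331.68, 379.28 and 238.22 FPKM, and FURIN, which processes proMMP14, stayed between 15.8 and 17.8 FPKM. Their log2 fold changes were 0.23 and -0.04. Neither passed the test, and PLAU spread as widely within the labels as between them.

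Of 4 surface partners all were tested. BSG, known as an inducer of MMPs, had 355.29, 311.49 and 352.79 FPKM against 375.17, 361.82 and 394.14 FPKM, without overlap and higher in the libraries labelled knockdown, where 7.94% of all tested genes were so separated. Its log2 fold change was 0.16 with an edgeR adjusted p of 0.628. CD63, a surface receptor of TIMP1, had a log2 fold change of 0.12 and overlapped. Of 16 matrix substrates 13 were tested, 4 above 0 and 9 below, with a median log2 fold change of -0.07. FN1, encoding fibronectin, and SPP1, encoding osteopontin, were the most abundant by CPM, with log2 fold changes of -0.25 and 0.10. VCAN, the versican cleaved by ADAMTS1 (named after its values were seen), had 8.58, 15.26 and 7.44 FPKM against 6.21, 7.23 and 6.22 FPKM, did not overlap, and had a log2 fold change of -0.65 with an unadjusted p of 0.0197 and an edgeR adjusted p of 0.599. Of all tested genes, 7.7% were likewise lower without overlap, and for VCAN control replicate 2 was again highest. All 13 AP-1, ETS and NF-kB factors were tested, with 11 estimates above 0, 2 below and a median of 0.17, and the groups overlapped for each of the 13. Of all 15299 tested genes, 7495 estimates were above 0 and 7804 below, with a median of -0.0065. The 13 factors share the same 6 libraries, so their estimates are not independent. FOSL1 and FOSL2, the most abundant by CPM, had log2 fold changes of 0.32 and 0.17. The 2 factors below 0, named after their values were seen, were FOS at -0.48 and FOSB at -0.18. JUN, named after its values were seen, had 51.22, 39.11 and 68.98 FPKM against 74.69, 79.99 and 61.34 FPKM, with a log2 fold change of 0.45, an unadjusted p of 0.0433 and an edgeR adjusted p of 0.608.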

How the data were processed

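Reads per gene were deposited by the authors as raw counts for 26899 genes. The authors also deposited FPKM values, rounded to 2 decimals. TopHat2, edgeR and GRCh38 are named in the submitters' processing notes, without roles; for the counting program, annotation release and strand setting the sources used here give nothing. Samples were grouped by title.

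Counts were tested with the edgeR 4.0.16 quasi-likelihood test (R 4.3.3, TMM scaling, default low-count filter with a minimum count of 10 and a total of 15), all 6 libraries in 1 model without covariates. P-values were two-sided and adjusted by Benjamini-Hochberg over 15299 genes at a threshold of 0.05. Standard errors were derived from the estimate and the test statistic. CPM refers to reads in tested genes times the TMM factor, and log2 CPM used a prior count of 2. The script was tested on simulated data. Replicate pairs differed by 9.64 to 49.7 in chi-square per degree of freedom, so no library was counted as a duplicate. Depth was 24231267 to 34561675 reads. Locations are from GENCODE on GRCh38, where 97.12% of identifiers matched.

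Alternatives were other scalings, no filter, DESeq2 1.42.0, limma 3.58.1 (voom, or trend on log2(FPKM + pseudocount) with 1 or 0.1), a replicate block and omission of libraries. Members and lists were chosen with earlier results of these data known. The genes named were all members, the 2 genes of highest CPM in each list, and the 3 genes most like MMP7 and TIMP1, the members of largest spread and level. ANXA2, marker genes, the genes of the MMP cluster and overlapping genes are named as context. List genes named beyond the rule are marked as chosen after their values were seen.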

Additional observations from a re-analysis of the deposited data

How the results depend on the processing

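The count of all genes past the adjusted threshold was 0 by edgeR, and 0 under 3 other scalings, limma-voom and the replicate block. It was 165 without the low-count filter, 32 by DESeq2, 0 to 4 when 1 library was left out (4 without knockdown replicate 2), and 6 without both control replicate 1 and knockdown replicate 3, a setting chosen after the data were seen. In each of these settings 0 members passed. Of 119 member estimates under alternatives, 112 kept their direction and their side of the threshold and 7 changed sign. These were MMP14, at -0.0061 with library size alone and from -0.065 to 0.11 when 1 library was left out, MMP7 (-0.64 to 0.29) and TIMP2 (-0.0203 to 0.226). The cause was not tested. The estimates of these 3 genes with all 6 libraries were smaller than their standard errors. When 1 library was left out, ADAMTS1 ranged from -0.21 (without knockdown replicate 2) to -0.016 (without knockdown replicate 3), TIMP1 from 0.049 (control replicate 2 omitted) to 0.15 (control replicate 1 omitted) and MMP9 from -0.49 to -0.01. MMP1 spanned -0.83 to -0.33, with adjusted p-values over edgeR, DESeq2 and limma from 0.08 (no filter) to 0.988. The edgeR fit without the filter gave MMP7 a standard error of 0.163, against 0.636 with the filter and 0.908 by DESeq2. That fit thus did not follow the spread of MMP7 between libraries. Its count of 165 genes and its adjusted p for MMP1 carry this limit.

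Pairing by replicate number was examined but not settled. Deviations from the group mean correlated at -0.0616, 0.118 and -0.203 for same-numbered libraries. Control replicate 1 with knockdown replicate 3 gave the highest value, 0.217. The 3 deviations of a gene in a group sum to 0, so these values cannot decide whether libraries were paired. With the replicate block 0 genes passed (1076 at an unadjusted p under 0.05) and the MMP1 estimate was -0.61. The depth limits MMP2, MMP3 and TIMP3, whose counting intervals are given above.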

Other observations

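Further genes of the lists had their 2 extreme values in control replicate 1 and knockdown replicate 3, the libraries with low MMP7, and were chosen after their values were seen. ADAMTS9, a proteinase of the same family as ADAMTS1, had 3.19 and 3.56 FPKM in these libraries and 9.24 to 14.09 FPKM in the other 4. SDC4, a heparan sulfate proteoglycan of the cell surface, had 147.89 and 174.02 FPKM against 241.33 to 516.52 FPKM. NFKB1, a subunit of NF-kB, had 11.63 and 11.93 FPKM against 13.26 to 23.22 FPKM. ADAMTS15 went the other way, with 4.96 and 3.75 FPKM against 1.59 to 2.28 FPKM. These values cross the labels, and no test was made of them.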
